A study of Mus musculus with 4 samples.

Results

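The Pou5f1 locus of mouse embryonic stem cells was described through its H3K27ac HiChIP contacts. HiChIP ligates DNA ends that lie close together in fixed nuclei and enriches the ligated pairs with an antibody, here against H3K27ac, an acetylation of histone H3 found at active promoters and enhancers. The deposited table lists pairs of anchors (genomic intervals bounded by GATC sites, which DpnII cuts) with the number of read pairs that joined them in each library. A pair of anchors is called a loop here, whatever its count. The locus was taken as all loops on chromosome 17 with at least 1 anchor overlapping 35.45 to 35.6 Mb (GRCm38), which gave 735 of 1513030 loops, with 11564 counts over the 4 libraries. These loops used 8 anchors inside the window and 140 partner anchors outside it. Start sites of Pou5f1, Tcf19, Cchcr1 and Cdsn lay in 2 of the 8 anchors.

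The 4 libraries came from inbred C57BL/6J (B6) and DBA/2J (D2) embryonic stem cells, 2 lines of each strain with 1 library per line. All lines were grown with 15% serum, LIF, 1 μM PD0325901 (a MEK inhibitor) and 3 μM CHIR99021 (a GSK3 inhibitor), and were fixed with 1% formaldehyde. No transgene, deletion or treatment that differs between the lines is named in the labels, nor is the sex of a line. Library totals were between 2767882 and 2944258 counts. In the library names, D2 replicate 1 is marked 10cyc and the other 3 are marked 8cyc, a mark that the labels leave unexplained.

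Pou5f1 encodes Oct4, a POU-domain transcription factor that embryonic stem cells need to stay pluripotent. It often binds DNA beside Sox2 at a joined Sox-Oct element, and its own gene is controlled by a promoter and by distal and proximal enhancers upstream of it. In the mouse it lies in the major histocompatibility complex, between class I H2-Q genes and a run of genes known from skin and lung. A HiChIP count rises with the frequency of a contact and with the amount of the mark at its ends, so a change in one cannot be told apart from a change in the other.

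RefSeq promoters (GRCm38.p6, from 250 bases before to 50 after the start) were found for 8 of the 8 protein-coding genes that start in the anchors. The 3 shown are those of Pou5f1, of Cchcr1, which starts head to head with Tcf19, and of 2300002M23Rik, whose anchor differed between the strains. Capitals mark GC boxes (GGGCGG), nuclear receptor half-sites (AGGTCA) and CCAAT boxes (CCAAT), read on both strands, and none of these matches overlap. TATAAA and the octamer ATGCAAAT were searched as well. Of 32851 mouse promoters, 35.7% held GGGCGG, 16.3% AGGTCA, 37.4% CCAAT, 13.6% TATAAA and 1.74% the octamer.
Pou5f1, chr17:35505782-35506081, plus strand: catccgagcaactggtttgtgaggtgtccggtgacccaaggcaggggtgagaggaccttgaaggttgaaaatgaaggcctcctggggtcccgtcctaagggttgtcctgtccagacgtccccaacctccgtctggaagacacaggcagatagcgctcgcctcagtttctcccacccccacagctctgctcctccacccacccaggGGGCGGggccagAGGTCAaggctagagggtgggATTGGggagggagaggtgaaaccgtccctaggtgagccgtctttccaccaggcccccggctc
Cchcr1, chr17:35516799-35517098, plus strand: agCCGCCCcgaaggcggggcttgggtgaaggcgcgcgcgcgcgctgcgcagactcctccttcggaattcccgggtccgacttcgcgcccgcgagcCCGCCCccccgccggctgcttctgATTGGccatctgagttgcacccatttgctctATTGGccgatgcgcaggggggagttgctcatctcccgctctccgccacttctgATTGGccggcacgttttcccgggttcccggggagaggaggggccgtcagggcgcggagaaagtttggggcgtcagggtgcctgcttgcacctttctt
2300002M23Rik, chr17:35567235-35567534, plus strand: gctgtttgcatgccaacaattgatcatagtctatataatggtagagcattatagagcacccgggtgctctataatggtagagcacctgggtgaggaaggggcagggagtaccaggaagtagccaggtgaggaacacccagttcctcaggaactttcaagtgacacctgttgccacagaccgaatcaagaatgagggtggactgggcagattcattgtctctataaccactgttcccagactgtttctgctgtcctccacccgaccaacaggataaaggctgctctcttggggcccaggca
The Pou5f1 promoter held 1 match each to the GC box, the half-site and the CCAAT box. The Cchcr1 promoter held 2 GC boxes and 3 CCAAT boxes, and the window of 2300002M23Rik held no match to the 5 motifs.

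The core of the Sox-Oct element was searched as TTGTTATGC on both strands of the 8 anchors, and 2 matches were found, both in the Pou5f1 anchor. The first lay 1965 bp before the Pou5f1 start site and the second 5379 bp after it, beyond the end of the gene. They are in capitals in the 60 bases around each.
Sox-Oct match before Pou5f1, chr17:35504028-35504087, plus strand: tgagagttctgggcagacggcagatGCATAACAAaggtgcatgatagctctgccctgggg
Sox-Oct match after Pou5f1, chr17:35511372-35511431, plus strand: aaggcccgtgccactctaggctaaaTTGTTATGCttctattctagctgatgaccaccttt
Of 2306 windows of chromosome 17 as long as the Pou5f1 anchor, 20.9% held at least 1 match to these letters. The other 7 anchors, all shorter, held 0 matches.

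The Pou5f1 anchor was long and rich in counts. It spanned chr17:35483215-35522718, 39.5 kb, and held the start sites of Pou5f1, of Tcf19 (a PHD finger protein), of Cchcr1 (a coiled-coil protein) and of the antisense gene Gm19553. Contacts of these 4 genes therefore cannot be separated in these files. A contact within the anchor, such as from the Pou5f1 start site to the Sox-Oct match 1965 bp before it, is not a loop here. With 5038 counts it ranked 149 of 56562 anchors, and 99.4% of all anchors were shorter or as long. Per kb it had 128 counts, more than 91.9% of all anchors, against 99.7% for the counts themselves.

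Toward higher coordinates the next anchors lay over genes of the epidermis. One at chr17:35528654-35536880 held the start of Psors1c2, and one at chr17:35538338-35552353 that of Cdsn, which encodes corneodesmosin, an adhesion protein of the cornified skin layer. A further anchor lay over an exon of Cdsn at chr17:35553367-35559650. The anchor of 2300002M23Rik, a protein-coding gene that RefSeq also lists as Stg, spanned chr17:35560574-35577703. The last anchor, chr17:35583164-35605475, held the GENCODE start of Sfta2, a surfactant-associated gene of the lung. Per kb, the Psors1c2, Cdsn start and Cdsn exon anchors had 190, 173 and 193 counts, all more than the Pou5f1 anchor.

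Toward lower coordinates the anchors were short and had fewer counts than the other anchors of the locus. The anchor at chr17:35469486-35472151, over the start of the class I gene H2-Q10, had 314 counts over the 4 libraries. The median of all anchors was 194. An intergenic anchor at chr17:35478014-35480700, 7925 bp from the H2-Q10 start, had 62 counts and was 88.5% repeat-masked, where the median anchor of chromosome 17 was 25.4% masked. Per kb the H2-Q10 anchor had 118 counts, near the 128 of the Pou5f1 anchor, and the intergenic anchor had 23.1. Of the 28 possible pairs among the 8 anchors, 27 were in the table and 19 had at least 20 counts over the 4 libraries, the minimum for a test. These pairs held 30.9% of the counts of the locus, so most of its contacts left the window.

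**Figure D1:**
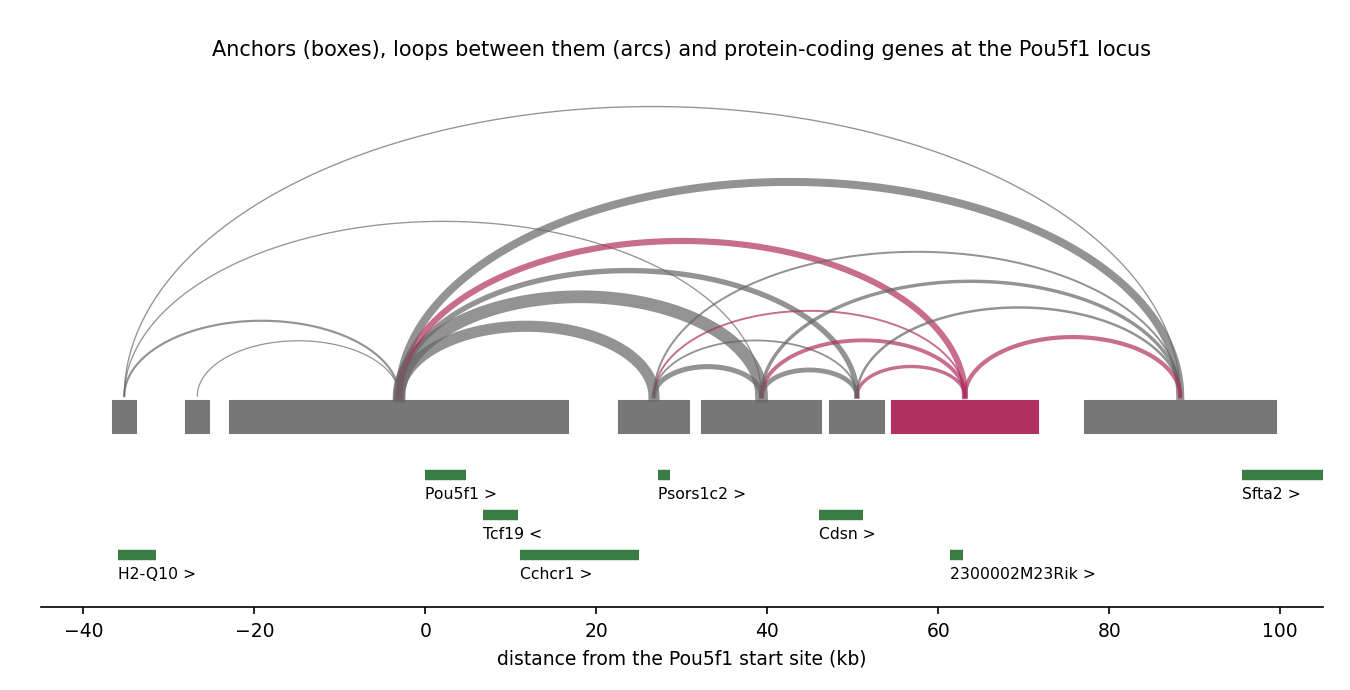
Anchors (boxes), tested loops between them (arcs, thicker with more counts over the 4 libraries) and protein-coding genes (bars, with the direction of transcription), drawn by distance in kb from the Pou5f1 start site; arc height only separates the arcs. The thickest arcs leave the Pou5f1 anchor toward Cdsn (628 counts) and Psors1c2 (545 counts), and the anchor of 2300002M23Rik with its arcs is in red.

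Contacts of the Pou5f1 anchor went mostly toward higher coordinates. Partners before the gene took 22.8%, 19.6%, 20.7% and 19.0% of its counts in B6 replicates 1 and 2 and D2 replicates 1 and 2, with Wilson 95% intervals of 20.6 to 25.1, 17.5 to 21.8, 18.7 to 23.0 and 16.7 to 21.6%. All such intervals cover counting error only. The strains overlapped, with 21.2% ± 2.25 (SD, n = 2) in B6 and 19.9% ± 1.20 in D2. There were 77 partners before and 59 after, and their widths and distances were not allowed for. In the locus, H2-Q10 and the intergenic anchor before the Pou5f1 anchor spanned 2.665 and 2.686 kb. Those after it spanned from 6.28 kb (Cdsn exon) to 22.3 kb (Sfta2). Loops whose partner lay over a protein-coding start site were 76 of 136 and held 79.0% of the counts, with partner width not allowed for. The 12 loops with the most counts held 61.0%.

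The strongest loop of the anchor joined it to the Cdsn start, 42.4 kb away. In the order B6 replicates 1 and 2, then D2 replicates 1 and 2, it had 155, 164, 181 and 128 counts. The highest and the lowest value were both from D2, and the fitted log2 difference of D2 over B6 was -0.11 ± 0.22 (SE), with an adjusted p of 0.91 (edgeR quasi-likelihood, Benjamini-Hochberg). Among 17263 pairs of the whole table within 10% of that distance, 73 had more counts. Here and below such pairs were matched by distance and not by anchor width, and the Pou5f1 anchor was longer than most. The loop to Psors1c2, at 29.8 kb, had 143, 127, 147 and 128 counts, and the loop to Sfta2, at 91.4 kb, had 103, 89, 116 and 71. In each the strains overlapped. The loop to the Cdsn exon, at 53.5 kb, was the most even, with 60, 64, 58 and 58 counts.

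Among the 12 loops of the Pou5f1 anchor with the most counts, the longer ones mostly ended over gene starts. Of the 140 partner anchors of the locus outside the window, with many or few counts, 51.4% held a protein-coding start site. Partner width was not matched in this comparison. The partner at 171.2 kb held the starts of Gtf2h4, a subunit of the general transcription factor TFIIH, and Vars2, a mitochondrial valyl-tRNA synthetase, and the loop had 52, 64, 47 and 35 counts. Both D2 values were below both B6 values, and the log2 difference of -0.56 ± 0.26 did not pass (edgeR adjusted p = 0.361). The partner at 361.9 kb held the starts of Nrm and Ppp1r18, with 37, 44, 46 and 34 counts, and 52 of 88082 pairs of like distance had more. The partner at 333.9 kb held those of Mdc1, a DNA damage checkpoint protein, and Tubb5, a beta tubulin, with 28, 33, 48 and 25 counts. The strains overlapped in both. Loops with 33, 32, 37 and 28 counts reached an anchor over Atat1, Mrps18b and Ppp1r10 at 413.8 kb, and loops with 29, 36, 40 and 18 counts an intergenic anchor 2708 bp from the start of Ier3 at 306.4 kb. The loop to Gm9573, at 130.7 kb, had 41, 40, 32 and 20 counts, again with D2 below B6 and an edgeR adjusted p of 0.283. On the other side the strongest partner held the starts of Atp6v1g2, Ddx39b (an RNA helicase of splicing and export) and Nfkbil1, 257.7 kb before the gene, with 34, 28, 32 and 28 counts. None of these loops passed the test.

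**Figure D2:**
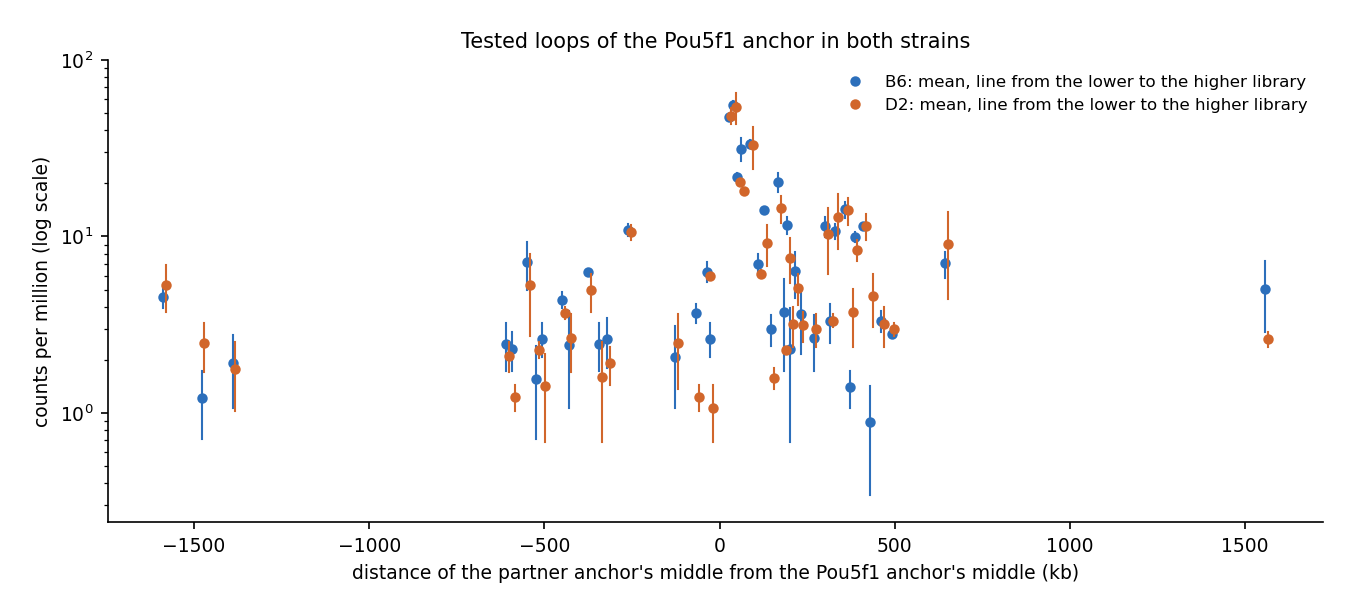
Loops of the Pou5f1 anchor with at least 20 counts: CPM (log scale) against the distance in kb between the middles of both anchors, negative toward lower coordinates. Points are strain means and lines join the lower to the higher of 2 libraries; the highest points lie within 100 kb after the gene.

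As a whole the locus took a smaller share of the counts in D2, but the D2 lines differed from each other. The locus held 0.112% of all counts in B6 replicate 1 (Wilson 95% interval 0.108 to 0.116) and 0.111% in B6 replicate 2 (0.108 to 0.115). It held 0.102% in D2 replicate 1 (0.0988 to 0.106) and 0.0800% in D2 replicate 2 (0.0768 to 0.0833). Scaled to CPM, counts per 1000000 counts of the library, B6 had 1116 ± 2.73 and D2 912 ± 159 (SD, n = 2), which is a log2 ratio of -0.29. The strains did not overlap, yet the ratio was -0.12 without D2 replicate 2 and -0.48 without D2 replicate 1. No test was run on this share: with 2 libraries a strain, the smallest p of an exact permutation test is 0.333. GRCm38 is the B6 assembly, and how well reads of D2 aligned to it here was not tested.

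The anchor of 2300002M23Rik had fewer counts in D2, and how well reads of D2 aligned there was not tested. The B6 libraries had 553 and 516 counts and the D2 libraries 273 and 319, or 187 ± 4.18 CPM against 103 ± 6.87 CPM. Both D2 libraries lay far below both B6 libraries and close to each other. The log2 difference was -0.82 ± 0.16, with an edgeR adjusted p of 0.000318. The call held in all 10 alternative fits, with differences from -0.87 to -0.79 and a highest adjusted p of 0.0222. It was the only one of the 8 anchors called, 1 lower and 0 higher. Of all tested anchors 9.75% were called, 7.08% lower and 2.67% higher in D2, so 1 of 8 is near the background. DESeq2 called the same 1 anchor, with 2.52% of all anchors called. The lower counts were seen in contacts inside the window and in contacts that left it. Counts to the other anchors of the locus were 262 and 268 in B6 against 140 and 160 in D2 (log2 ratio of mean CPM -0.82), and counts to anchors elsewhere were 291 and 248 against 133 and 159 (-0.89).

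The Pou5f1 anchor itself had 1336 and 1339 counts in B6, 1365 in D2 replicate 1 and 998 in D2 replicate 2. One D2 line was thus the highest of the 4 and the other the lowest, with 493 and 339 CPM against 469 ± 13.2 CPM in B6. The log2 difference was -0.12 ± 0.19 (edgeR adjusted p = 0.776). Without D2 replicate 1 it was -0.49 and passed (adjusted p = 0.016), and without D2 replicate 2 it was 0.17 and did not (adjusted p = 0.496). Whether the 10cyc mark of D2 replicate 1 has a part in this was not tested.

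The Sfta2 anchor showed the same spread between the D2 lines. It had 846 and 772 counts in B6 and 699 and 534 in D2. Both D2 values were below both B6 values, with a log2 difference of -0.34 ± 0.18 (edgeR adjusted p = 0.262). That difference was -0.66 (adjusted p = 0.000286) without D2 replicate 1 and -0.07 (adjusted p = 0.814) without D2 replicate 2. It also passed when library totals were used without TMM factors (adjusted p = 0.0386) or when the totals of chromosome 17 set the scale (0.0316). The intergenic anchor near H2-Q10 had 18, 25, 13 and 6 counts, a log2 difference of -1.13 ± 0.42 with an edgeR adjusted p of 0.0838, which became 0.0182 without D2 replicate 1.

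The remaining 4 anchors did not pass the test. Psors1c2 had 434, 370, 389 and 373 counts (log2 difference -0.04 ± 0.16), the Cdsn start had 612, 657, 621 and 541 (-0.08 ± 0.17), the Cdsn exon had 332, 317, 286 and 275 (-0.17 ± 0.16) and H2-Q10 had 77, 88, 71 and 78 (-0.11 ± 0.19). Their edgeR adjusted p-values ran from 0.595 to 0.937. In 4 of the 8 anchors both D2 libraries lay below both B6 libraries and in 0 above, where 28% of all tested anchors had D2 below B6 and 49.5% had strains that did not overlap in either direction. Without D2 replicate 1, 4 of the 8 anchors were called, all lower, against 7.29% of all tested anchors; without D2 replicate 2 it was 1, against 15.2%.

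**Figure D3:**
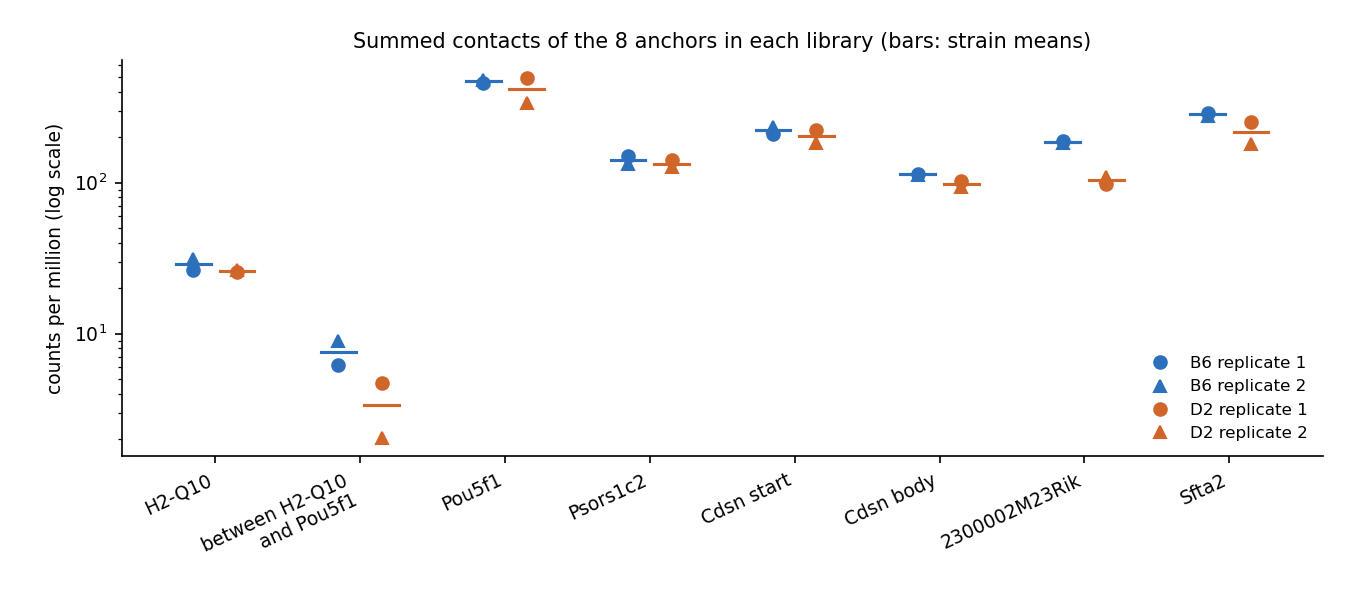
CPM (log scale) of the 8 anchors in each library, in genome order; circles and triangles are replicates 1 and 2 and short bars are strain means. At the 2300002M23Rik anchor the D2 lines sit together below B6 (103 against 187), while at the Pou5f1 anchor one D2 line is above B6 and the other below.

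Of the 123 tested loops of the locus, which held 76.5% of its counts, 5 passed, 1 higher and 4 lower in D2. Over all 108034 tested loops 1.45% passed, 0.492% higher and 0.957% lower, against 4.07% in the locus. An unadjusted p under 0.05 was found for 27 of the 123, where 11.7% of all tested loops had one. Loops that share an anchor are not independent, and 3 of the 5 shared the anchor of 2300002M23Rik. The count of 5 depended on the libraries: it was 0 without B6 replicate 1, 1 without B6 replicate 2, 0 without D2 replicate 1 and 4 without D2 replicate 2. Over all tested loops 0.841% were called without D2 replicate 1 and 2.72% without D2 replicate 2. DESeq2 called 0 of the 123, with 6 at an unadjusted p under 0.05, and 0.0889% of all tested loops.

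The loop between the Cdsn exon and 2300002M23Rik, 12.6 kb apart, had 55 and 40 counts in the B6 lines against 17 and 23 in the D2 lines. The log2 difference was -1.31 ± 0.30 (edgeR adjusted p = 0.00372), and it passed in 6 of 11 fits, the main fit included. The loop between 2300002M23Rik and Sfta2, 25.2 kb apart, had 61 and 56 counts in B6 and 30 and 32 in D2, with -0.98 ± 0.28 and an edgeR adjusted p of 0.0327 (3 of 11 fits). The loop between the Pou5f1 anchor and 2300002M23Rik, at 66.2 kb, had 78 and 101 counts in B6 and 51 and 52 in D2, with -0.86 ± 0.25 and an edgeR adjusted p of 0.0364 (3 of 11 fits). Without B6 replicate 1 or without D2 replicate 1 none of the 3 passed, and without B6 replicate 2 only the first did. In all 3 the lower B6 library lay above the higher D2 library. Put as a share of the Pou5f1 anchor's counts, the last loop took 5.84% (Wilson 95% interval 4.70 to 7.23) and 7.54% (6.25 to 9.08) in B6, and 3.74% (2.85 to 4.88) and 5.21% (4.00 to 6.77) in D2, and these intervals overlapped between the strains except for B6 replicate 2 and D2 replicate 1.

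The other called loops had few counts. The Sfta2 anchor and an intergenic anchor at chr17:35736045-35740829, 31446 bp from the start of Ddr1 (a collagen receptor kinase), were joined by 22 and 14 counts in B6 and 5 and 6 in D2. The log2 difference was -1.75 ± 0.49 with an edgeR adjusted p of 0.0291 (4 of 10 fits), not passing when any 1 library was left out, and the authors' q-value was under 0.01 for each B6 library but not for D2. In the only loop that rose, the Pou5f1 anchor met chr17:35931106-35941011, over an exon of Ppp1r10 (a nuclear regulator of protein phosphatase) at 433.1 kb. B6 had 1 and 4 counts there and D2 had 17 and 9, a log2 difference of 2.26 ± 0.64 with an edgeR adjusted p of 0.0335 (5 of 9 fits). The difference was 1.54 without B6 replicate 1 (adjusted p = 0.606) and 3.48 without B6 replicate 2 (adjusted p = 0.116); without D2 replicate 1 the loop had too few counts to be tested. The neighbouring partner over the start sites of Ppp1r10, Atat1 and Mrps18b, given above, did not pass (log2 difference -0.06 ± 0.30, edgeR adjusted p = 0.963).

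Over all tested loops of the locus, called or not, values below 0 were in the majority. The log2 difference was below 0 in 97 of the 123 tested loops (78.9%), against 48.9% of all tested loops, and the median was -0.38 against 0.02. The 17 tested loops of the 2300002M23Rik anchor were all below 0, with a median of -0.88. Their counts are part of the anchor sum called above, so they are no separate evidence for it. Among the other 106 tested loops 80 were below 0, the median was -0.28 and 2 were called. The 45 tested loops of the Pou5f1 anchor had a median of -0.20, with 33 below 0. In 54 of the 123 the strains did not overlap, where 41.7% of all tested loops did not. D2 was lower in 47 and higher in 7 of these, where 17.9% of all tested loops had D2 below B6 and 23.8% had it above. The median over the locus was -0.22 without D2 replicate 2 and -0.54 without D2 replicate 1, below the median of all loops in both cases. Library totals without TMM moved the median of all loops to 0.08 and that of the locus to -0.31.

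**Figure D4:**
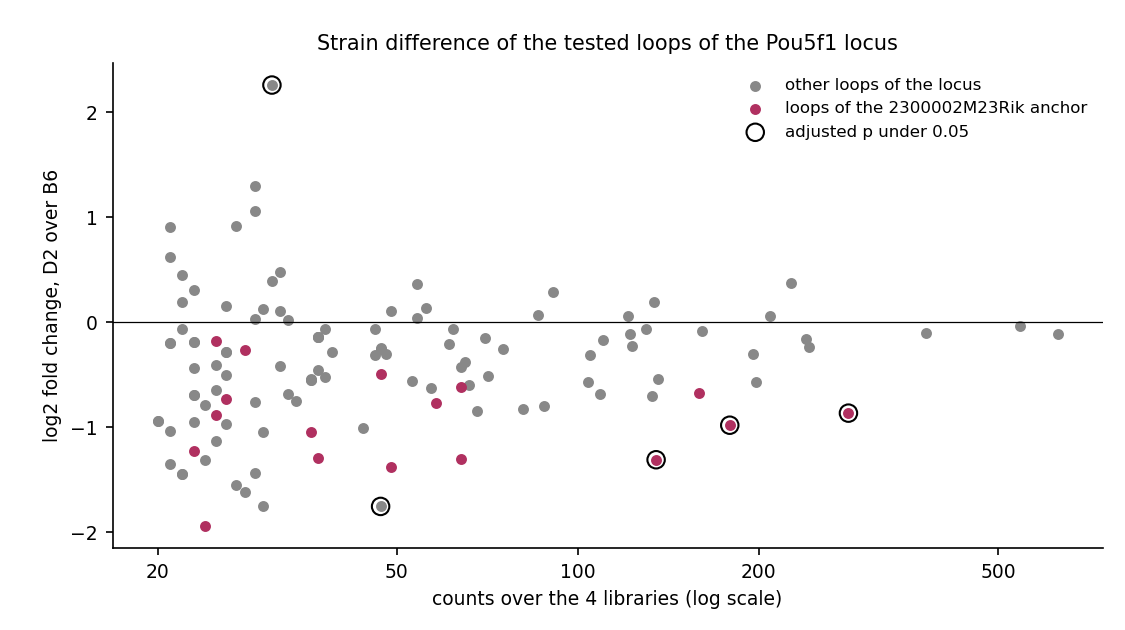
Log2 fold change of D2 over B6 for the 123 tested loops of the locus against their counts over the 4 libraries (log scale); red points are the 17 loops of the 2300002M23Rik anchor and circles mark the 5 loops with an adjusted p under 0.05. All red points lie below 0, and 3 of the 5 circled loops are red; the red loops are part of the anchor sum that was called.

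How far the contacts reached did not separate the strains. The median distance of the counts was 171.2 and 163.4 kb in B6 and 181.7 and 169.3 kb in D2, or 167.3 ± 5.55 against 175.5 ± 8.74 kb (SD, n = 2). The values overlapped, and the difference of 8.15 kb turned to -6.86 kb over loops with at least 20 counts. For the Pou5f1 anchor alone the median was 171.2 kb in 3 libraries and 130.7 kb in D2 replicate 2. The longest tested loop, 1675.4 kb, joined Sfta2 to an anchor over 11 gene starts that include Daxx and Rps18, with 5, 5, 8 and 4 counts. In the locus 506 and 486 loops had a count in B6 and 430 and 425 in D2, but the whole table also had fewer in D2 (715798 and 803268, against 833100 and 822266). The locus thus held 0.0607% and 0.0591% of the loops seen in B6, 0.0601% in D2 replicate 1 and 0.0529% in D2 replicate 2, so that D2 replicate 1 lay within the B6 values. A q-value under 0.01 from the authors' caller was given to 222 and 209 loops of the locus in B6 and to 181 and 165 in D2, or 0.132%, 0.129%, 0.120% and 0.102% of all loops with such a q-value in that library. It was found in all 4 libraries for 94 loops of the locus, of 50018 in the table. Another 19 loops of the locus, of 13715 in the table, had one in both B6 libraries and no D2 library, and 3, of 11736, had the reverse.

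The neighbourhood held other anchors that differed, on both sides. Within 600 kb before the window, 4 of 29 tested anchors were lower in D2 and 0 were higher, with a median of -0.03. The anchor of H2-Q7, a class I gene, had 88 and 58 counts in B6 against 13 and 22 in D2 (log2 difference -2.02 ± 0.28), and that of H2-Q6 had 39 and 28 against 13 and 10 (-1.50 ± 0.36). Their edgeR adjusted p-values were 1.01e-06 and 0.00336. Within 600 kb after the window, 9 of 39 were lower and 5 higher, against the same 7.08% and 2.67% of all tested anchors. The median there was -0.04. A run of 4 anchors near Ddr1 was lower. One of them, at chr17:35719460-35727582, had 278 and 294 counts in B6 and 162 and 193 in D2 (-0.66 ± 0.16, edgeR adjusted p = 0.00358). The Pou5f1 anchor lay between these, and its own difference did not pass.

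**Figure D5:**
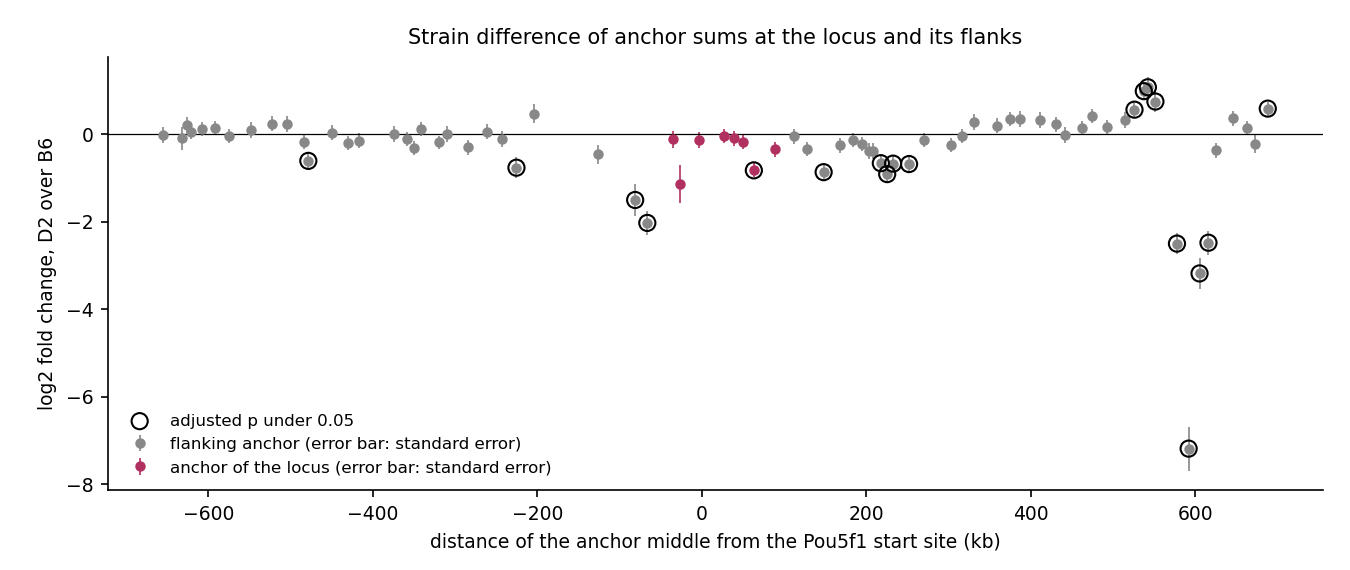
Log2 fold change of D2 over B6 of each tested anchor within 600 kb of the window, by distance in kb from the Pou5f1 start site; error bars are standard errors, red marks the 8 anchors of the locus and circles an adjusted p under 0.05. The lowest point had 0 and 1 counts in D2, so its fitted value depends on the prior count and is no size of change.

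The other pluripotency genes were read from a list of 19, of which 13 had an anchor over a start site. Counted gene by gene, so that a loop joining 2 of these genes counts for each, 298 loops were tested. Of these, 4 were higher in D2 and 0 lower (1.34%, against 1.45% of all tested loops): 2 at Nanog and 1 each at Sox2 and Dppa5a. The count of 4 was 0 without B6 replicate 1, without B6 replicate 2 or without D2 replicate 1, and 17 without D2 replicate 2. Among the 13 anchors, 2 passed, both higher, where 9.75% of all tested anchors were called, 2.67% higher. Nanog, a homeodomain factor, had 1443 and 1452 counts in B6 against 2714 and 1732 in D2 (log2 difference 0.68, edgeR adjusted p = 0.026). Sox2, the partner of Oct4, had 503 and 596 against 918 and 713 (0.62, edgeR adjusted p = 0.018). At both anchors D2 replicate 1 was the highest library, and without it the differences were 0.20 and 0.31 and did not pass. The median over the 13 anchors was 0.35, and it was 0.0011 without D2 replicate 1. Klf4, a zinc finger factor, had 384 and 375 counts in B6 and 361 and 280 in D2, with a log2 difference of -0.20 (edgeR adjusted p = 0.555), lower than the -0.12 of the Pou5f1 anchor. Without D2 replicate 1 the Klf4 anchor passed as lower (-0.50, edgeR adjusted p = 0.0185), as the Pou5f1 anchor did.

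Marker genes of the labelled cell type were present. Of 12 embryonic stem cell markers, 10 had an anchor over a start site, all but Esrrb and Tfcp2l1, and their summed CPM ran from 2785 to 2949 in B6 and from 2792 to 3975 in D2. Of 8 fibroblast markers, which feeder cells would bring, 3 had an anchor, with a summed 11.3 to 11.4 CPM in B6 and 6.86 to 10.5 in D2. Col1a1, Col1a2, Col3a1, Postn and Prrx1 had none. Of 8 markers of early lineages 6 had an anchor, with 156 to 163 CPM in B6 and 149 to 168 in D2.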

How the data were processed

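H3K27ac HiChIP was measured in 4 libraries, 2 lines each of B6 and D2 embryonic stem cells. Per the submitters' processing notes, HiC-Pro 2.11.4, DESeq2 and the mm10 build were used; the loop caller's settings and the read filters are not given in the sources used here. The deposited table holds raw counts per pair of anchors, with the authors' distance between anchors in bp. The deposited single-library files hold the same counts and a value per pair taken as the caller's q-value, since these files have no header. All 2492 anchors of chromosome 17 started and ended at GATC in GRCm38.

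Genes came from GENCODE M21 and promoters from RefSeq. Loops, and anchors as sums of their loops, with at least 20 counts over the 4 libraries were tested over the whole table with edgeR 4.0.16 (quasi-likelihood, TMM, strain as the only term; limma 3.58.1, R 4.3.3) and Benjamini-Hochberg adjustment at 0.05. Log2 differences are D2 over B6, and SE is their size divided by the root of the test's F. DESeq2 1.42.0, other scalings, other count minimums, a replicate block and leaving out each library were alternatives. CPM used library totals. On simulated data for D2 against B6, edgeR recovered 2.98% of 168 loops changed 2-fold and 39.1% of 169 changed 3-fold; for anchors it recovered 56.6% and 88.8% of 196.

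Named were all 8 anchors, the 12 strongest loops of the Pou5f1 anchor, the strongest loop of every other anchor with at least 200 counts, every called loop and the longest tested loop; flanking anchors were named after their values were seen. The members and lists were chosen with earlier results of these data known. The labels call the samples biological replicates from separate lines, so p-values rest on 2 lines a strain.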

Additional observations from a re-analysis of the deposited data

How the results depend on the processing

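The count of 5 called loops was 3 with library totals or with totals of chromosome 17, 0 with DESeq2, 0 with a count minimum of 10 (204 loops tested, 28 at an unadjusted p under 0.05), 0 with no minimum (735 tested, 74 at an unadjusted p under 0.05), 3 over loops with both anchors in the window and, in an alternative chosen after seeing the data, 2 without the 2300002M23Rik anchor. Leaving out 1 library gave between 0 and 4 called loops. The 1 called anchor became 2 with library totals or chromosome 17 totals, and 1 to 4 when 1 library was left out. The 4 called loops of other pluripotency genes became 0 with DESeq2 (3 at an unadjusted p under 0.05), 0 with a minimum of 10, 8 with none, and 0 to 17 when 1 library was left out.

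The labels name no pairing of the lines by replicate number. Deviations of same-numbered libraries correlated at -0.00052. Counting error weakens such a correlation, so it cannot decide whether same-numbered libraries were handled together. With the replicate block 5 loops, 1 anchor and 3 loops of other pluripotency genes were called.

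The log2 ratio of the locus share ran from -0.48 to -0.12 when 1 library was left out, and was -0.21 for loops inside the window. The distance difference of 8.15 kb was -0.72 kb for loops inside the window, -6.86 kb for loops with at least 20 counts, 24.8 kb for loops with q under 0.01, and 1.97 to 14.3 kb with 1 library left out. The difference in the share before the gene ran from -2.87 to 0.32 percentage points.

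Uncalled differences changed sign when 1 library was left out, between these limits: anchors Pou5f1 -0.49 and 0.17, Psors1c2 -0.17 and 0.091, Cdsn -0.29 and 0.11; loops of the Pou5f1 anchor to Cdsn -0.42 and 0.12, Psors1c2 -0.18 and 0.064, Sfta2 -0.54 and 0.21, Nrm -0.36 and 0.12, Tubb5 -0.39 and 0.59, Atat1 -0.32 and 0.13, Ier3 -0.95 and 0.24, H2-Q10 -0.36 and 0.020. The loop to Psors1c2 was also 0.030 with library totals, 0.036 with chromosome 17 totals, 0.0045 with a minimum of 10 and 0.042 with none. The loop to Atat1 was 0.0015, 0.0083 and 0.013 with library totals, chromosome 17 totals and no minimum. The cause of these changes was not tested. With 2 libraries a strain, loops of few counts could pass only with large differences.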

Other observations

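Farther after the locus, 3 anchors over starts of class I genes of the H2-T group were higher in D2. The anchor over the starts of H2-T22 and Gm6034, at chr17:36040886-36045610, had 78 and 73 counts in B6 and 131 and 163 in D2 (log2 difference 0.99 ± 0.18, edgeR adjusted p = 7.88e-05). The anchor of H2-T23, at chr17:36030068-36033763, had 106 and 78 against 132 and 134 (0.57 ± 0.18, edgeR adjusted p = 0.0332), and that of H2-T3, at chr17:36188060-36199864, had 311 and 299 against 446 and 449 (0.59 ± 0.16, edgeR adjusted p = 0.0106). The anchor of H2-T24, at chr17:36018770-36022277, had 91 and 76 against 103 and 102 and did not pass (0.33 ± 0.18, edgeR adjusted p = 0.293). Between the H2-T22 and H2-T3 anchors, 4 anchors in a row, none over an H2-T start, had far fewer counts in D2. The last of these lay over the start of Gm19684, and the anchor before it in an intron of Gm7030. The anchor at chr17:36081654-36085467 had 116 and 110 counts in B6 and 18 and 21 in D2, and the anchor at chr17:36094572-36100952 had 95 and 90 in B6 and 0 and 1 in D2. These anchors were named after their values were seen, and how reads of class I genes, which have close copies, were placed in either strain was not tested.

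Inside the locus, loops that did not use the 2300002M23Rik anchor had 928 and 930 CPM in B6 and 926 and 692 CPM in D2. D2 replicate 1 was thus close to B6 in this sum, and D2 replicate 2 was the library that stood lower. The loop between Psors1c2 and the Cdsn start had 48 and 48 counts in B6 and 63 and 67 in D2, the reverse order of most loops of the locus, with a log2 difference of 0.37 and an edgeR adjusted p of 0.626.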
